A study of Homo sapiens with 2 samples.

Results

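DNA replication and G1/S genes were examined on the 2 arrays of an IFITM1 knockdown. The set holds 40 genes, named by their place in the replication machinery or in entry into S phase, of 19775 genes named by a probe set of 1 gene. All 40 had such a probe set, and all 40 passed a filter on dim signals that kept 12225 genes. The cells were HT-29, a human line established from a colorectal adenocarcinoma, and each sample was transfected with a short interfering RNA (siRNA). The first received siIFITM1, directed at IFITM1, an interferon-induced membrane protein that restricts virus entry, and the other received siLuc, directed at firefly luciferase, as the baseline. Both were harvested 72 h after transfection, and each was read on 1 array. With no replicate array, differences are described by their size and none was tested. The siRNA sequences are not given in the labels, and nothing in them separates an effect of losing IFITM1 from other effects of that siRNA.

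Before a chromosome can be copied, origins are licensed in G1 phase, when CDC6 and CDT1 load the ring of MCM proteins onto DNA that the origin recognition complex has bound. At the start of S phase CDC45 and the GINS complex join that ring to form the active helicase, and DNA polymerases, the sliding clamp PCNA and its loader RFC follow. Cyclin E and E2F transcription factors set the timing, because E2F proteins activate most genes of this machinery as cells leave G1. Transcripts of these genes are abundant in dividing cells and scarce in resting ones.

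Signals below are MAS5 signals in the authors' scaled units, and each log2 ratio is siIFITM1 over siLuc for a gene's main probe set, chosen as the brightest by mean log2 signal. A signal compares the arrays for 1 probe set and does not compare genes with each other. The IFITM1 probe set read 237 with siIFITM1 and 640.0 with siLuc (log2 ratio -1.43), and its probes may also bind related transcripts. The median log2 ratio of all genes that passed was -0.02. The log2 ratio of 3' over 5' signal of GAPDH was -0.11 with siIFITM1 and -0.13 with siLuc. The log2 ratios of siIFITM1 over siLuc for 18 hybridisation controls lay between -0.13 and 0.05, with a median of -0.07. The 10 markers of colon and simple epithelium summed to 158617 with siIFITM1 and 155826 with siLuc. Such a sum is led by its brightest probe sets. Of these markers 8 passed, with 3 above 0 and a median log2 ratio of -0.02. The highest of the 8 were KRT20 (0.36) and CDH1 (0.27), and the lowest were LGALS4 (-0.17) and CEACAM5 (-0.11). CDX1 and CDX2, intestinal transcription factors, were below the filter. Markers of fibroblasts summed to 728 with siIFITM1 and 606 with siLuc, and 3 of 6 passed, LUM at 1.54, COL1A1 at -0.49 and DCN at -0.51. Markers of endothelium summed to 209 with siIFITM1 and 223 with siLuc (1 of 4 passed). The leukocyte list summed to 21066 with siIFITM1 and 24582 with siLuc, nearly all of it LYZ, the lysozyme gene, which epithelial cells can also express, while PTPRC, the defining leukocyte marker, was below the filter.

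The replication genes were, as a group, slightly higher with siIFITM1. Of the 40 genes 27 (67.5%) had a log2 ratio above 0, against 47.4% of all genes that passed and 50.5% of the 7793 brighter genes, those with a mean signal at or above the 75th percentile of probe sets (393). The median log2 ratio was 0.10 for the 40 genes, against -0.02 for all genes that passed and 0.0031 for the brighter genes. All but CLSPN were among the brighter genes. No member was 2-fold apart, against 3.03% of all genes and 0.269% of brighter genes. A log2 ratio of at least 0.32, a signal 25% higher, was reached by 3 members (7.5%), against 12.9% of all genes and 9.5% of brighter genes. A ratio of -0.32 or less, a signal 20% lower, was reached by 2 members (5%), against 17.4% of all genes and 9.1% of brighter genes. Members beyond that line were thus no larger a share than genes at large in either direction.

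No replicate spread exists, and the yardstick used for single genes is the disagreement between probe sets of the same gene, which had an SD of 0.193 on the log2 scale over 2954 genes with several brighter probe sets. It covers differences between probes on the same 2 arrays and no variation between cultures. Of the 40 members 62.5% lay within that SD of 0, against 60.7% of brighter genes. Among the 18 members with several brighter probe sets, 14 (77.8%) had all of them on the same side of 0, with 11 all above and 3 all below. The same share was 60.4% over all genes with several brighter probe sets. Counting every probe set that passed the filter, 16 of 24 members (66.7%) had all on the same side. Of these, 11 were all above 0 and 5 all below, while 8 members were mixed. The share over all genes was not computed for that count.

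**Figure D1:**
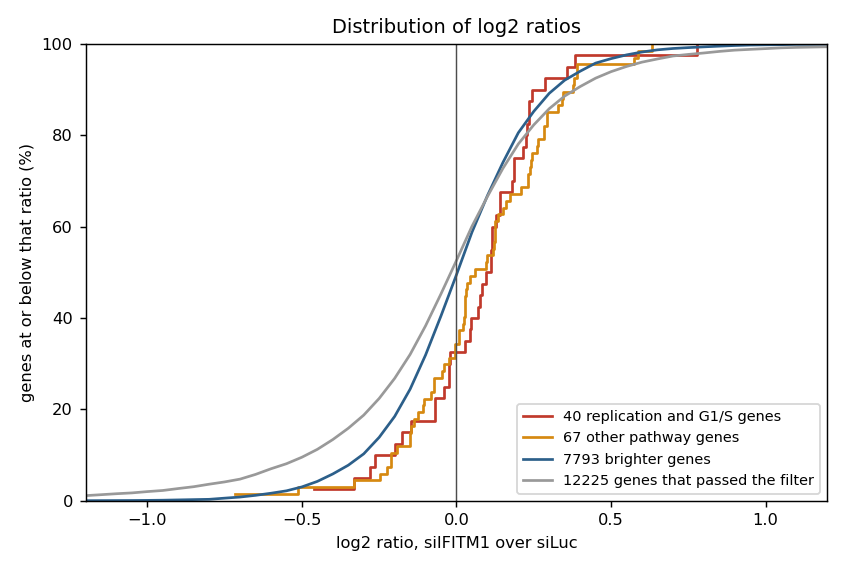
Cumulative share of genes (vertical axis, %) at or below each log2 ratio of siIFITM1 over siLuc (horizontal axis) for the 40 replication and G1/S genes, 67 other pathway genes, all brighter genes and all genes that passed. To the right of a log2 ratio of 0 lie 67.5% of the replication genes, against 50.5% of the brighter genes.

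Genes of the MCM proteins, which form the helicase ring, differed little between the arrays, with 5 of 7 (71.4%) above 0. Among brighter genes 50.5% were above 0. The 7 log2 ratios ran from -0.18 to 0.19 with a median of 0.11, and all 7 lay within the SD between probe sets. MCM2 read 5739.6 with siIFITM1 and 5636 with siLuc (0.03). MCM3 read 2430.2 with siIFITM1 and 2136 with siLuc (0.19), the highest of the 7. MCM4 read 5019 with siIFITM1 and 5671 with siLuc (-0.18), and its 4 probe sets above the filter were all below 0, from -0.19 to -0.01. So the MCM genes did not share a direction. MCM5 read 2567 with siIFITM1 and 2375 with siLuc (0.11), and its other probe set was at 0.06. MCM6 read 8939 with siIFITM1 and 9086 with siLuc (-0.02), and a far dimmer probe set was at 0.35. MCM7 read 7557 with siIFITM1 and 6919 with siLuc (0.13), and both of its probe sets gave 0.13. MCM10, which is not part of the ring but helps to activate it, stood at 1086 with siIFITM1 and 958 with siLuc (0.18), with its other probe sets at 0.01 and 0.54.

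Of the licensing genes, the loaders CDC6 and CDT1 and their inhibitor geminin all had main probe sets above 0. CDC6, the ATPase that recruits the ring, read 2994 with siIFITM1 and 2527 with siLuc (0.24), and its other probe set was at 0.18. CDT1, the loading partner that is destroyed in S phase, read 1248 with siIFITM1 and 1067 with siLuc (0.23), and 0.07 at its other probe set. GMNN, which encodes geminin and blocks CDT1 after origins have fired, read 6963 with siIFITM1 and 6322 with siLuc (0.14). The ratio of GMNN and those of the dimmer CDC6 and CDT1 probe sets lay within the SD of 0.193. CDC45, the factor that joins the ring when an origin fires, went the other way. Its probe set read 1812 with siIFITM1 and 2496 with siLuc, a log2 ratio of -0.46. That was the lowest ratio of the 40, and it rests on 1 probe set, so no second reading of CDC45 exists on these arrays.

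The GINS complex, which joins CDC45 on the helicase, was split. GINS1 read 6022 with siIFITM1 and 5117 with siLuc (0.23), and GINS2 read 3336 with siIFITM1 and 3233 with siLuc (0.05), with dimmer probe sets at -0.15 and -0.46. GINS3 read 426 with siIFITM1 and 511 with siLuc (-0.26), and its other probe set gave -0.28, at 386 with siIFITM1 and 469 with siLuc. GINS4 read 816 with siIFITM1 and 1027 with siLuc (-0.33). A second, dimmer GINS4 probe set was at -0.90, and the other 2, below the filter, were at 0.33 and 0.74. The median of the 4 GINS genes was -0.11, the only subgroup median below 0. In the cell these subunits are part of 1 complex in equal numbers, while their transcripts here lay on both sides of 0.

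**Figure D2:**
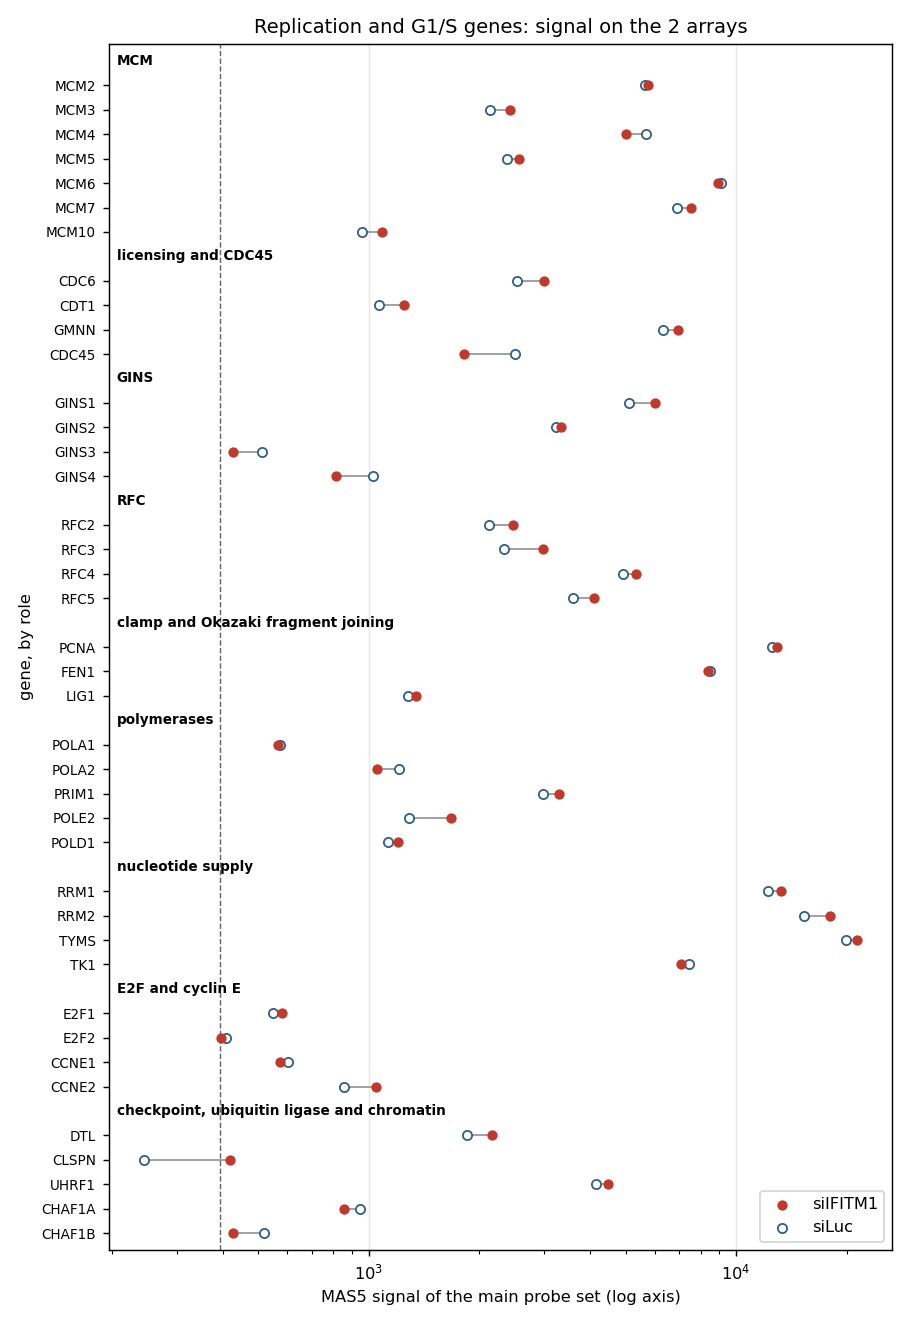
MAS5 signal of each member's main probe set (horizontal log axis) on the siIFITM1 array (filled) and the siLuc array (open), with genes listed by role and the 75th percentile of probe sets as a dashed line. The 4 RFC genes have the siIFITM1 signal to the right of the siLuc signal, while CDC45, GINS3 and GINS4 have it to the left, and CLSPN, with the widest gap, read 245 with siLuc.

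Subunits of RFC, the loader that places the PCNA clamp on DNA, were the only subgroup of the 9 with every main probe set above 0. Among brighter genes 50.5% were above 0. The median of the 4 genes was 0.20, and 2 of them, RFC4 and RFC5, lay within the SD of 0.193. RFC3 read 2989 with siIFITM1 and 2335 with siLuc, a log2 ratio of 0.36, and its next probe set was at 0.21, with 1223 on the siIFITM1 array and 1058 on the siLuc array. Another RFC3 probe set, far below the filter, was at -0.67, and it took the mean over probe sets of RFC3 to -0.0355. RFC5 read 4102 with siIFITM1 and 3607 with siLuc (0.19), and its other probe sets were at 0.28 and 0.06. RFC4 read 5342 with siIFITM1 and 4928 with siLuc (0.12). RFC2 read 2468 with siIFITM1 and 2129 with siLuc (0.21), but a probe set of nearly the same brightness read 2192 with siIFITM1 and 2279.9 with siLuc (-0.06). Of the 9 probe sets of these genes, dim ones included, 7 were above 0. RFC1, the large subunit, which was not a member, stood at 1395 with siIFITM1 and 1436 with siLuc (-0.04).

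The clamp itself and the enzymes that finish lagging strand fragments were close to level. PCNA read 12927 with siIFITM1 and 12523 with siLuc (0.05). FEN1, the nuclease that trims flaps, read 8370.0 with siIFITM1 and 8491 with siLuc (-0.02), and 0.06 at its other probe set. LIG1, the ligase that seals them, read 1344 with siIFITM1 and 1281 with siLuc (0.07). These 3 genes had the smallest spread of the 9 subgroups, with an SD of 0.0469.

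Polymerase subunits diverged. POLE2, a subunit of the leading strand polymerase epsilon, had the highest ratio of any brighter member. Its single probe set read 1673 with siIFITM1 and 1283 with siLuc (0.38), a signal higher by 30.3%. PRIM1, the catalytic primase that starts each fragment, read 3288 with siIFITM1 and 2983 with siLuc (0.14), and POLD1, the catalytic subunit of polymerase delta, read 1199.6 with siIFITM1 and 1132 with siLuc (0.08). The polymerase alpha subunits, which extend primase's product, were not higher at their main probe sets. POLA1 read 565 with siIFITM1 and 575 with siLuc (-0.02). POLA2 read 1051 with siIFITM1 and 1208 with siLuc (-0.20), while its dimmer probe sets gave 0.74 and 0.22, so its direction depended on the probe set.

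Genes that supply deoxynucleotides were mostly higher by a small amount, with 3 of 4 above 0, against 50.5% of brighter genes. Within the SD of 0.193 lay 3 of the 4. Other nucleotide enzymes, which were not members, had 2 of 4 above 0 and a median of -0.01. RRM2, the regulated subunit of ribonucleotide reductase, read 17959 with siIFITM1 and 15253 with siLuc (0.24), and its other probe set gave 0.22. RRM1, the catalytic subunit of that enzyme, read 13258 with siIFITM1 and 12241 with siLuc (0.12), and 0.14 at its other probe set. For each subunit of the reductase, both probe sets gave nearly the same ratio. TYMS, the thymidylate synthase, read 21299 with siIFITM1 and 19939.8 with siLuc (0.10), with other probe sets at -0.01 and 0.48. TK1, the salvage thymidine kinase of S phase cells, was slightly lower at both of its probe sets, with 7097 on the siIFITM1 array and 7445 on the siLuc array at the main one (-0.07) and -0.06 at the other.

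The switch genes of G1/S, the E2F activators and the cyclins E, had a median of 0.02. E2F1 read 579 with siIFITM1 and 549 with siLuc (0.08), but its other probe set read 344 with siIFITM1 and 452 with siLuc (-0.40). E2F2 read 396 with siIFITM1 and 408 with siLuc (-0.04), and its other probe sets were below the filter. The E2F activators themselves showed no common direction. CCNE1 read 574 with siIFITM1 and 601 with siLuc (-0.07). CCNE2, the second cyclin E, read 1044 with siIFITM1 and 856 with siLuc (0.29), and its other probe set gave 0.53, at 666 with siIFITM1 and 463 with siLuc. CCNE2 was the member of this subgroup whose probe sets stood on the same side and beyond the SD between probe sets.

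The remaining members guard forks or rebuild chromatin. CLSPN encodes claspin, the adaptor through which stalled forks activate the checkpoint kinase CHEK1, and it had the highest ratio of the 40. Its main probe set read 420.4 with siIFITM1 and 245 with siLuc (0.78), but the other 3 probe sets, all dimmer, were at 0.01, 0.03 and -0.24. The SD between dimmer probe sets of a gene was 0.496, so the ratio of CLSPN rests on 1 of 4 readings. DTL, the substrate receptor of the ubiquitin ligase that removes CDT1, read 2164 with siIFITM1 and 1851 with siLuc (0.22), and 0.12 at its other probe set. UHRF1, which carries DNA methylation across replication, read 4484 with siIFITM1 and 4151 with siLuc (0.11). The subunits of chromatin assembly factor 1, which deposits histones on new DNA, were both lower. CHAF1A read 856 with siIFITM1 and 947 with siLuc (-0.15), and all 4 of its probe sets were below 0, down to -0.64 at the dimmest. CHAF1B read 427 with siIFITM1 and 518 with siLuc (-0.28) at its only probe set.

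**Figure D3:**
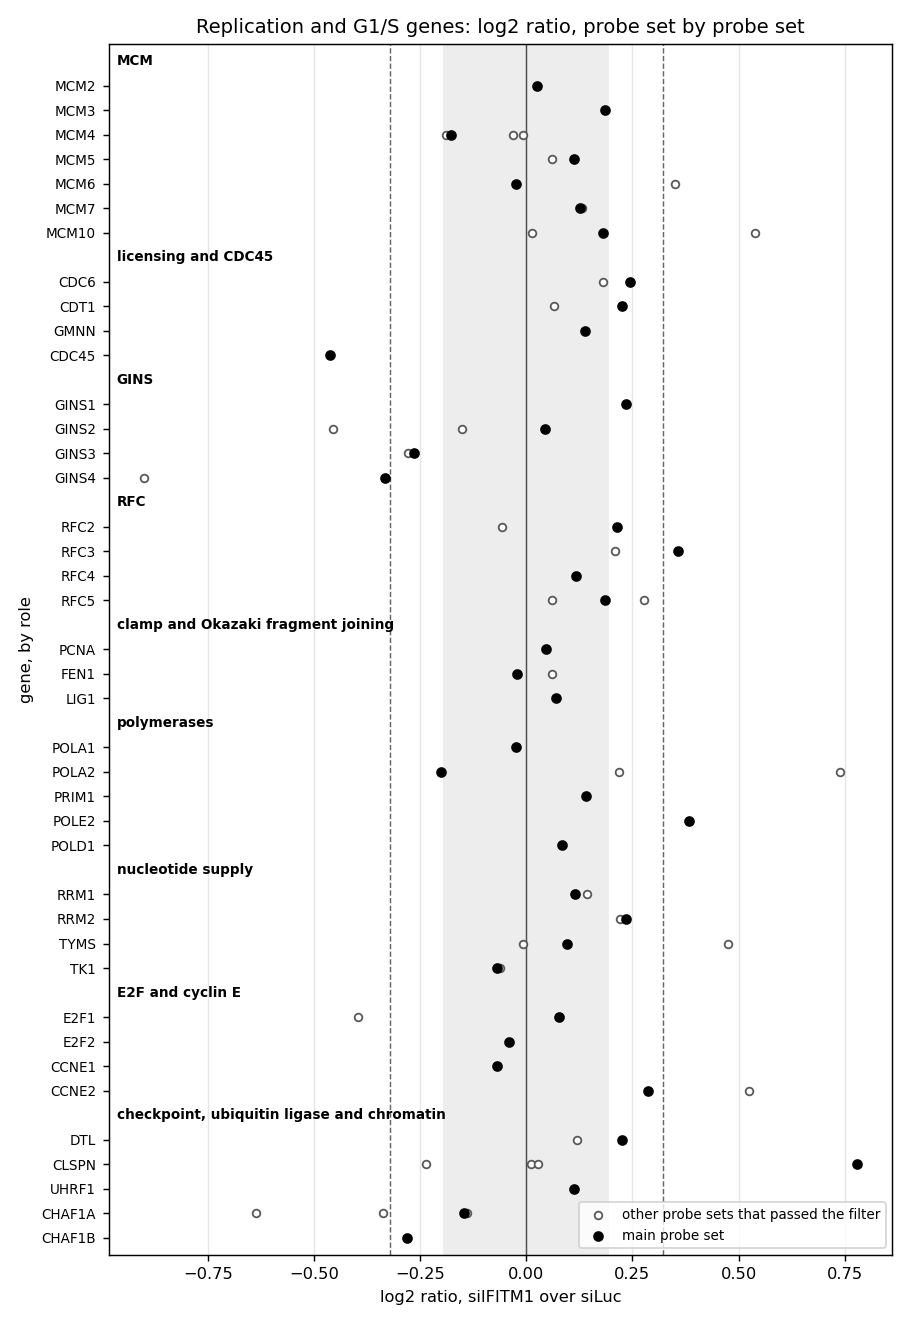
Log2 ratio of siIFITM1 over siLuc (horizontal axis) at the main probe set of each member (filled) and at its other probe sets that passed the filter (open), with genes listed by role. The grey band is the SD of 0.193 between brighter probe sets of a gene and the dashed lines are at -0.32 and 0.32, which CLSPN, POLE2 and RFC3 exceed upward and CDC45 and GINS4 downward.

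After the values had been seen, the members were divided at a mean signal of 1000. Of the 30 members at or above it 24 (80%) had a ratio above 0, against 51.3% of all 5146 genes at that level. Of the 10 members below it 3 (E2F1, CCNE2 and CLSPN) were above 0, against 44.5% of all 7079 genes that passed below that level. Many of those genes are dimmer than these members. Between the 75th percentile and 1000, where all of these members but CLSPN lie, 49.0% of 2647 genes were above 0. The other 7 of these 10 were GINS3, GINS4, POLA1, E2F2, CCNE1, CHAF1A and CHAF1B. Above that level the lowest ratios were those of CDC45 (-0.46) and POLA2 (-0.20). Of the 67 other pathway genes, 32 of 47 (68.1%) were above 0 at or above that level and 12 of 20 (60%) below it, with medians of 0.05 at or above it and 0.13 below it.

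Promoter sequence, which the arrays do not measure, was examined next. E2F proteins activate most genes of this machinery, so a high share of E2F motifs can follow from the choice of genes alone. The promoter windows of RefSeq (build GRCh38.p14), which run from 250 bases before a gene's start to 50 bases after it, held 36 of the 40 members. Each window was searched on both strands for the letters TTCCCGC and TTGGCGC, versions of the core that E2F factors bind. Of the 36 members 28 (77.8%) held at least 1 match, a share to be set beside 11.0% of all 27305 genes with a window and 17.5% of the 9928 such genes that passed the filter. Among other genes of replication and G1/S entry the share was 21 of 54 (38.9%). Counted by gene, TTCCCGC was in 20 members (55.6%), against 7.82% of all genes with a window, and TTGGCGC was in 12 (33.3%), against 3.66%. The matches crowded near the start, with 24 of 39 (61.5%) in the 100 bases before it, against 37.0% of matches in all windows. No matches overlapped each other in the members. Member windows were also richer in G and C, at 66.5% on average against 57.5% over all windows, and the part of base composition in these shares was not tested.

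Among the members, the 28 with a match had a median log2 ratio of 0.12 and 21 (75%) above 0, while the 8 without one had a median of 0.0027 and 4 (50%) above 0. Those without a match were CCNE1, CDC45, FEN1, MCM10, MCM2, POLA2, POLD1 and RFC5. CCNE2 (0.29), MCM5 (0.11), MCM4 (-0.18) and GINS4 (-0.33) had no window and are on neither side. Among all brighter genes with a window the medians were 0.02 with a match and -0.0020 without one, and 54.5% of those with a match and 49.7% of those without one were above 0. A match describes letters in a window and not a bound factor.

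The windows shown are those of the 3 highest and the 3 lowest members that hold a match, to set the letters of both ends side by side. They are written 5′ to 3′ on the gene's strand with each match in capitals, where GCGGGAA and GCGCCAA are the motifs read from the opposite strand.
CLSPN, chr1:35769929-35770228, minus strand: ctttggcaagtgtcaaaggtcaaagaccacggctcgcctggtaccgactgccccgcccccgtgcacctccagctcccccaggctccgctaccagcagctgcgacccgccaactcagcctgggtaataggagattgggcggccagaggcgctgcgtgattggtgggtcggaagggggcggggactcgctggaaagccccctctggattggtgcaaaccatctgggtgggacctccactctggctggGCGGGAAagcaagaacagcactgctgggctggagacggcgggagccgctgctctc
POLE2, chr14:49688165-49688464, minus strand: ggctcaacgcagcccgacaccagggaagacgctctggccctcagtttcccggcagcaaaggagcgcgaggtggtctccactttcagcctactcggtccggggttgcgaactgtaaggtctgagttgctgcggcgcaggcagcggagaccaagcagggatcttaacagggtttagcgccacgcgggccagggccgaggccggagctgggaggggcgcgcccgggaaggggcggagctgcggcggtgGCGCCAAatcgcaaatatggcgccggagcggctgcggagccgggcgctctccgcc
RFC3, chr13:33817899-33818198, plus strand: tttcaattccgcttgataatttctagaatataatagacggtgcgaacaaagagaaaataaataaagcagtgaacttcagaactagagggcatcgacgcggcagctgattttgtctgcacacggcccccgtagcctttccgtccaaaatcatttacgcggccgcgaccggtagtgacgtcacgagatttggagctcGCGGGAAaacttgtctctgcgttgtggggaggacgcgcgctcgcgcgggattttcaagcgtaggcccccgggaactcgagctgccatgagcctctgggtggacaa
CHAF1A, chr19:4402390-4402689, plus strand: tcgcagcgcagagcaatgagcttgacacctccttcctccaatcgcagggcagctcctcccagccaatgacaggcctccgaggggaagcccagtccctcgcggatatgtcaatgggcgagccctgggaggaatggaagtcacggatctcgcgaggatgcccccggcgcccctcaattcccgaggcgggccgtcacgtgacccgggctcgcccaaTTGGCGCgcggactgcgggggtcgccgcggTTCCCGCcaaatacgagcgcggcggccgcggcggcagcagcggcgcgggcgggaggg
GINS3, chr16:58392221-58392520, plus strand: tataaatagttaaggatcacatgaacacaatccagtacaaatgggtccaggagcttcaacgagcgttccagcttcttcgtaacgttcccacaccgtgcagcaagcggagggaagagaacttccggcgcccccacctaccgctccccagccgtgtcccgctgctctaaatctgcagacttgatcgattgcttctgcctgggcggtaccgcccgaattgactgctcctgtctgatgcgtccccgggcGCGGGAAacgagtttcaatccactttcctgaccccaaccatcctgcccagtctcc
CHAF1B, chr21:36385142-36385441, plus strand: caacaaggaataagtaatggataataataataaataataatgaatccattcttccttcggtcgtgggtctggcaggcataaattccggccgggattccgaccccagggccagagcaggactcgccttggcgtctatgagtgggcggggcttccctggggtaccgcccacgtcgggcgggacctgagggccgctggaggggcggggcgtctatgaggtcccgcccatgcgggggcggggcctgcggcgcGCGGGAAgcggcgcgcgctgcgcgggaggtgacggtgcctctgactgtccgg

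Members at both ends of the order had a match close to the start. CLSPN, POLE2 and GINS3, with log2 ratios of 0.78, 0.38 and -0.26, each had a match whose first base lay 5 bases before the start, at position -5. CHAF1B had its match at -2 and RFC3 at -55. CHAF1A held both motifs, at -37 and -7. These windows were picked because they hold a match, so they show where matches lie and not whether matches go with the ratio.

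**Figure D4:**
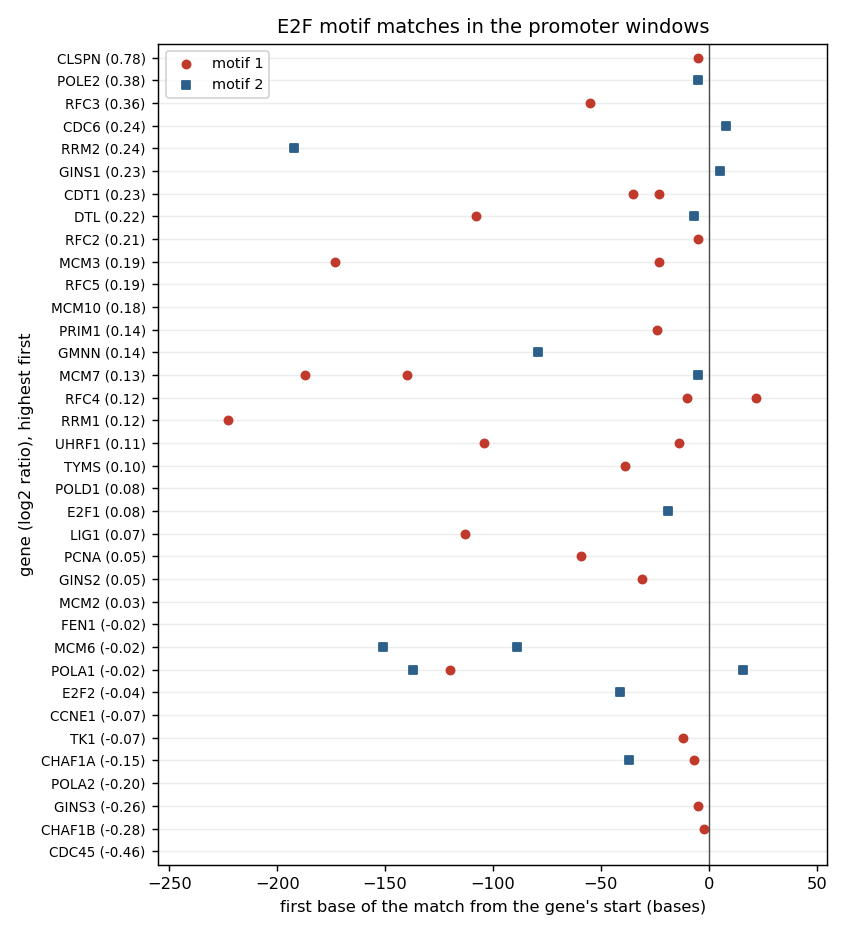
Position of each E2F motif match from the gene's start (horizontal axis, bases, negative before the start) in the 36 members with a promoter window, ordered by log2 ratio of siIFITM1 over siLuc from highest to lowest. Circles (motif 1) are TTCCCGC and squares (motif 2) are TTGGCGC, and 24 of the 39 matches lie in the 100 bases before the start.

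Other genes of replication and G1/S entry were listed by function, with earlier results of these data known. Of the 70 listed, 67 had a probe set of 1 gene, and all 67 passed. Of these 67, 62 were brighter genes. Above 0 were 44 (65.7%) with a median of 0.06, against 47.4% of all genes that passed and 50.5% of brighter genes. At or beyond 0.32 were 10 (14.9%), against 12.9% of all genes and 9.5% of brighter genes. Of these 10, PRIM2, WDHD1 and RBL1 were dimmer genes, which passed with a mean signal below the 75th percentile. Among all dimmer genes 18.9% reached that line, and the SD between dimmer probe sets of a gene was 0.496. At or beyond -0.32 were 3 (4.48%), against 17.4% of all genes and 9.1% of brighter genes. Origin recognition genes and the kinase that fires origins had 6 of 8 above 0 (median 0.12), and fork assembly and protection genes 7 of 8 (0.17). The highest of the first kind was ORC2, at 1389 with siIFITM1 and 1093 with siLuc (0.35), although its other probe set was at -0.18. TIPIN, a partner of TIMELESS in the fork protection complex, read 2069 with siIFITM1 and 1580.4 with siLuc (0.39). WDHD1, which links polymerase alpha to the helicase, had 251 with siIFITM1 and 192 with siLuc (0.39), and all 3 of its probe sets were above 0. RECQL4, a helicase of origin firing, was at 628 with siIFITM1 and 789.6 with siLuc (-0.33), with 0.16 at its other probe set.

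PRIM2, the large primase subunit, read 455 with siIFITM1 and 303 with siLuc (0.59), and other probe sets that also name its pseudogene were not used. DNA2, a nuclease that trims long flaps, read 749.5 with siIFITM1 and 597 with siLuc (0.33). Of the other E2F and DP genes 7 of 8 were above 0, against 50.5% of brighter genes. E2F8 and TFDP1 were near level (both 0.03), and the other TFDP1 probe sets were at -0.17 and -0.19. E2F7 was at 0.12 at its main probe set and at -0.46 at its other one. E2F6, a repressor of the family, read 1647 with siIFITM1 and 1106 with siLuc (0.57). E2F3, an activator like E2F1, read 1623 with siIFITM1 and 1249.5 with siLuc (0.38), and its other probe set gave 0.42. E2F5, which acts mainly as a repressor, read 683 with siIFITM1 and 525 with siLuc (0.38), with -0.13 at its other probe set. Among activators, E2F3 thus had 2 probe sets above 0.32 while E2F1 and E2F2 had none.

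Drivers and brakes of G1/S entry went both ways. CDC25A, the phosphatase that activates CDK2, read 869.7 with siIFITM1 and 561 with siLuc (0.63), while its other probe sets gave 0.62 and -0.68. SKP2, the ubiquitin ligase subunit that removes CDKN1B, read 3268 with siIFITM1 and 4663 with siLuc (-0.51), and all 3 of its probe sets were below 0. CDKN1C, an inhibitor of cyclin-dependent kinases, read 356 with siIFITM1 and 585 with siLuc (-0.72), and its 4 probe sets above the filter were all below 0, from -1.27 to -0.41. RBL1, a relative of the retinoblastoma protein, read 414 with siIFITM1 and 327 with siLuc (0.34), with -0.08 and -0.26 at its dimmer probe sets that passed. Of the 9 drivers 3 were above 0 (median -0.11), and of the 6 brakes measured 3 were (median -0.08). The share was 47.4% of all genes that passed and 50.5% of brighter genes.

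**Figure D5:**
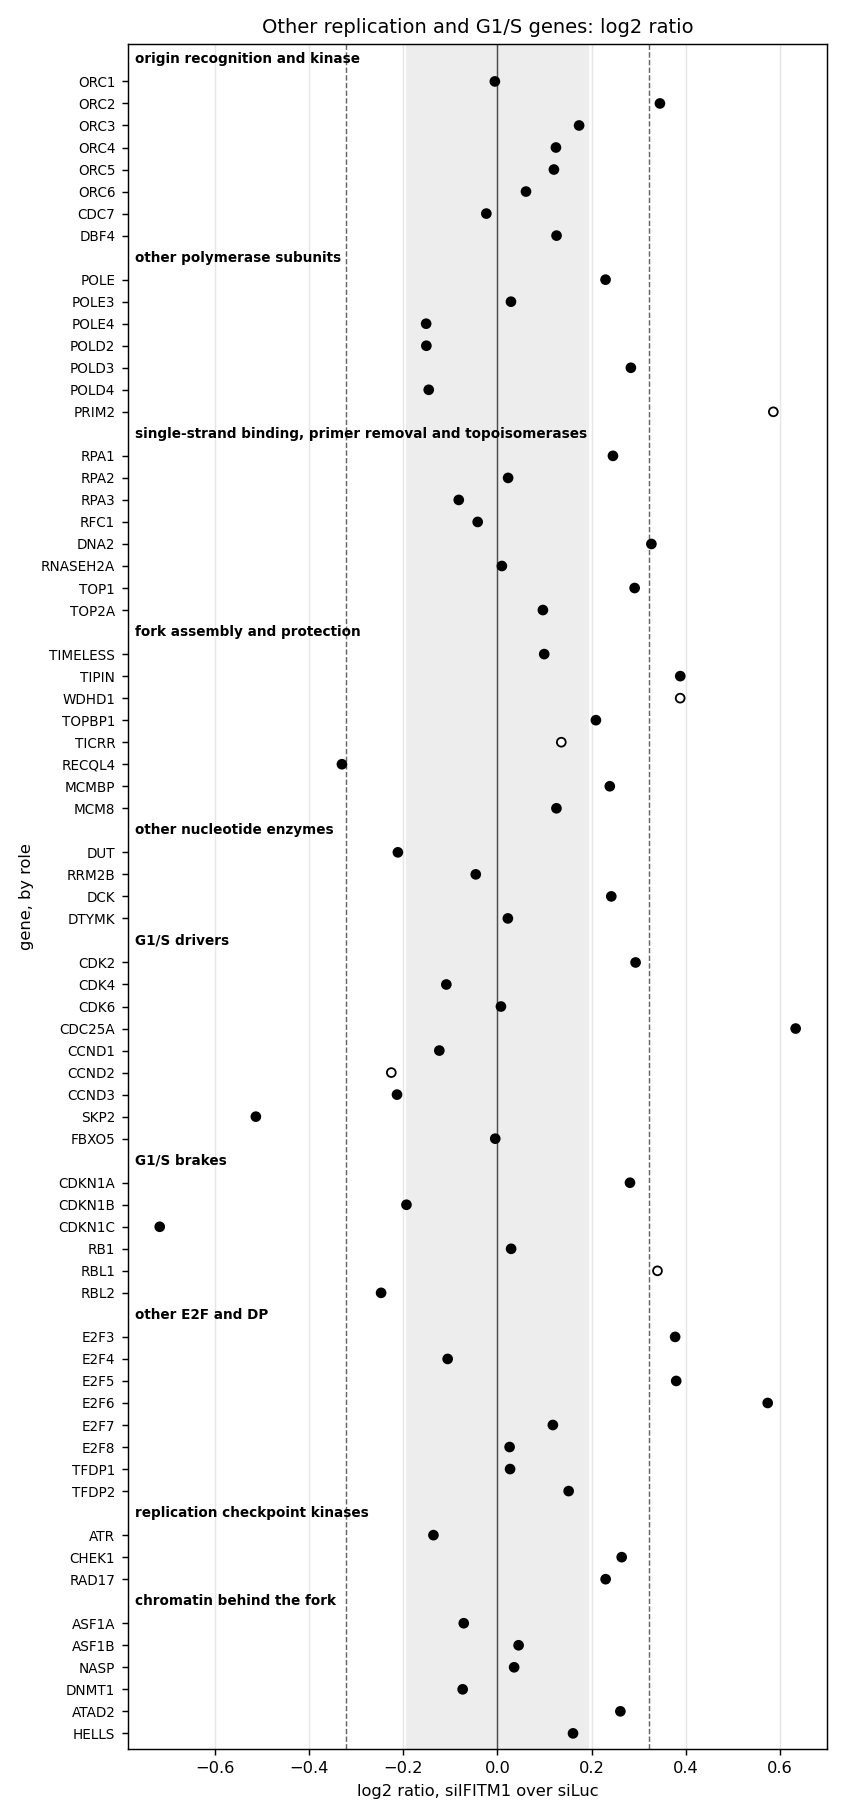
Log2 ratio of siIFITM1 over siLuc (horizontal axis) at the main probe set of 67 other replication and G1/S genes, listed by role, with brighter genes filled and dimmer genes open. The grey band is the SD of 0.193 between brighter probe sets of a gene and the dashed lines are at -0.32 and 0.32, which 10 genes exceed upward and SKP2, CDKN1C and RECQL4 downward.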

How the data were processed

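HT-29 RNA was amplified to biotin-labelled cRNA and read on 1 single-colour array per sample, per the labels. The deposited values are intensities, made by the authors with MAS5 per the submitters' processing notes, on a linear scale. No source used here states the MAS5 version. With 2% of probe sets trimmed at each end, both arrays averaged 499.9, so they had been scaled alike. Having 2 arrays limits the precision of all values.

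Of 54613 probe sets other than controls, 41091 named 1 gene and were used, and 41037 found their Entrez identifier in a RefSeq table that gave current symbols. Signals were taken to log2 unscaled. A gene passed if the mean of its main probe set reached the median over probe sets (a signal of 57.4). Nothing was tested. All members were named, and other pathway genes if they passed and reached a log2 ratio of 0.32 in either direction. RFC1 was named besides, after its value was seen, as the remaining subunit of the clamp loader. The members and lists were chosen with earlier results of these data known. The code was tested on simulated arrays. Python 3.11.15, numpy 2.4.6, pandas 2.3.3, statsmodels 0.14.6 and matplotlib 3.10.9 were used.

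Alternatives were median centring, quantile normalization, removing a loess trend (span 0.3), adding 32 to each signal, dropping the filter or raising it to the 75th percentile, averaging a gene's probe sets, and leaving out IDs that end in _x_at or _s_at, which mark shared probes.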

Additional observations from a re-analysis of the deposited data

How the results depend on the processing

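Of 120 values over the 8 alternatives for 15 results, 114 kept their direction and stayed within the SD of 0.193 between probe sets of a gene, or within 1.5 times for counts. That SD was larger than the size of every main median except that of RFC, so a median could lose most of its size and still be counted. The MCM median went from 0.11 to 0.01 without shared probes, and the GINS median from -0.11 to -0.21. With the mean over probe sets the RFC median went from 0.20 to 0.10. The median of the 40 replication genes ran from 0.07 without probe sets that share probes to 0.12 after median centring, and the share above 0 was lowest without shared probes (62.5% of 32 genes). The count at or below a log2 ratio of -0.32 was 1 after median centring and 1 with 32 added, each time without GINS4. With the mean over probe sets 1 gene was 2-fold apart (CCNE1, through a probe set below the filter), the E2F and cyclin E median was 0.41 over 3 genes, and RFC3 was at -0.0355. The median of the checkpoint, ubiquitin ligase and chromatin genes was -0.0172 with the filter at the 75th percentile and -0.0844 without shared probes. The stricter filter leaves out CLSPN. Without shared probes DTL is left out, since its probe sets all end in _s_at, and CHAF1A is at -0.64. With the mean over probe sets E2F2 falls below the filter and CCNE1 is at 1.02. In all, 8 of the 40 members changed sign under at least 1 alternative, and POLA2 reached 0.74 without shared probes. No paired analysis was possible because each siRNA has 1 array.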
